A study of Rattus norvegicus with 24 samples.

Results

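The neurotransmitter receptor subunits were the genes whose symbols name a subunit of the GABA-A, GABA-B, glycine, AMPA, kainate, NMDA or metabotropic glutamate receptors. The symbol rule found 50 of the 32883 genes in the table. They were 19 GABA-A, 2 GABA-B, 5 glycine, 4 AMPA, 5 kainate, 7 NMDA and 8 metabotropic glutamate subunits. RNA came from the urethra of female Sprague-Dawley rats, virgin and 12 weeks old, all of which underwent simulated vaginal delivery (SVD), a pudendal nerve crush combined with vaginal distention. At 1 h after SVD the rats received saline, allogeneic mesoangioblasts (MABsallo) or the same cells made to overexpress VEGF (MABsallo-VEGF) by intra-aortic injection. Mesoangioblasts are vessel-associated muscle stem cells. They were taken from rat hind-limb muscle and carried a lentiviral reporter, and the VEGF cells carried a further lentiviral vector. Urethras were taken at 3d or 7d, giving 6 groups of 4 samples, 24 in all. No uninjured group was analysed here, so every comparison is between injured urethras. In the MABsallo-VEGF group at 7d, replicates 6 and 7 were labelled as recovered.

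GABA and glycine are the main inhibitory transmitters of the nervous system, and glutamate is the main excitatory one. GABA-A, glycine, AMPA, kainate and NMDA receptors are ion channels assembled from several subunits, whereas GABA-B and metabotropic glutamate receptors signal through G proteins. Some subunits are obligatory, such as Grin1 in NMDA receptors, a beta subunit in most GABA-A receptors, and the Gabbr1 and Gabbr2 pair in GABA-B receptors. The urethra is a muscular and epithelial organ that nerve fibres enter from outside, and glia and other peripheral cells can also transcribe some of these genes.

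Libraries were 3′ mRNA libraries, and values are normalized counts, that is reads divided by a size factor for the sample. Libraries held 2170695 to 10166052 reads. They were shallower at 3d after MABsallo (2170695 to 4491900) and MABsallo-VEGF (3042531 to 4261098) than after saline (4851797 to 5249467), so that 1 read stood for 1.67 to 9.23 normalized counts. The share of mitochondrially encoded reads was 12.7% to 20.04% in saline at 3d, 23.8% to 35.4% in MABsallo at 3d, and 15.7% to 39.1% in MABsallo-VEGF at 3d. At 7d it was 11.8% to 16.2% in all groups. MABsallo-VEGF replicate 4 had the lowest share of its group at 3d and saline replicate 6 the highest of its own; results at 3d are given with and without this pair (24 and 22 samples). Replicate 4 lay within the saline range of this share and replicate 6 was the saline library nearest to the cell-treated ones, and without the pair the genes called for MABsallo-VEGF against saline at 3d went from 5 to 2213. Saline replicate 8 was kept, although it differed more from the other saline libraries at 3d (chi-square per degree of freedom 86.7 to 130) and had summed urothelial markers of 780 against 11504 to 16536. MABsallo-VEGF replicate 2 at 3d, also kept, had summed urothelial markers of 1258.5 against 10682 to 27857 in its group. MABsallo-VEGF replicate 11 at 7d, kept too, had summed Schwann cell markers of 64071 against 5252 to 12671. Smooth muscle and urothelial markers were present, 6 of 6 genes each, as were 4 of 4 skeletal muscle genes in the table. In bulk tissue, fewer cells of a type and less RNA per cell cannot be told apart.

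Receptor subunit RNA was sparse. All 50 genes together took 14419 reads, 0.0118% of all reads. No read of 17 subunits was found in any library, 10 reached at most 3 reads in any library, and 23 exceeded 3 reads in at least 1. Only 4, Gabbr1, Gria3, Grik5 and Grik2, exceeded 3 reads in all 24 libraries, and 8 did so in 12 or more. A count of 0 in a library allows up to 3 reads, or 5.004 to 27.7 normalized counts depending on the library. Subunits at 0 were therefore not detectable at this depth, rather than shown to be absent.

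**Figure D1:**
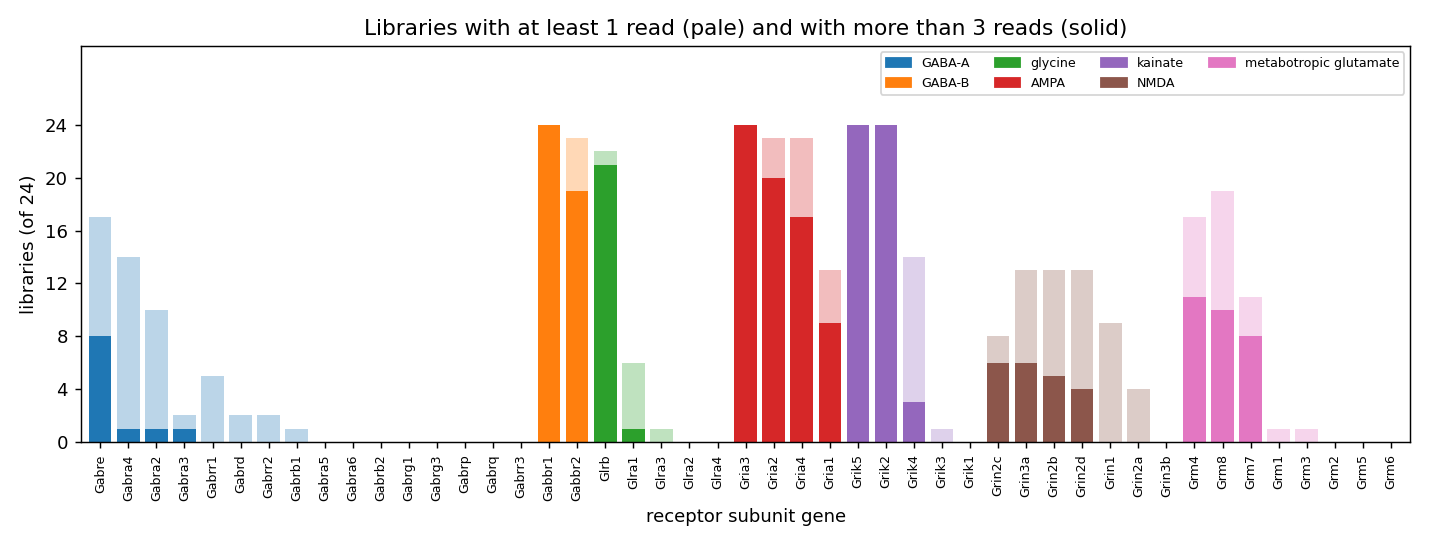
Number of the 24 libraries (y axis) in which each of 47 subunit genes (x axis, coloured by family) had at least 1 read (pale bars) or more than 3 reads (solid bars). Solid bars reach 24 for Gabbr1, Gria3, Grik5 and Grik2, and 15 genes have no bar.

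Subunits that most receptors of a family need were among those with no read or with at most 3 reads in any library. Of the 19 GABA-A genes, 10 had no read and 5 exceeded 3 reads somewhere, such as Gabra2, Gabra4 and Gabre. The beta subunit Gabrb1 had 1 read in all libraries together and Gabrb2 had none. The gamma subunits Gabrg1 and Gabrg3 had none either. Grin1, the obligatory NMDA subunit, had at most 3 reads in any library and 20 in total, while Grin2b, Grin2c, Grin2d and Grin3a each exceeded 3 reads in some. All 4 AMPA genes and both GABA-B genes were detected above 3 reads.

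The number of subunits above 3 reads in at least 1 sample was 18 in saline, 18 in MABsallo and 15 in MABsallo-VEGF at 3d. At 7d it was 17, 16 and 14 in the same order. After thinning every library to 2170695 reads these counts were 12, 15, 12, 14, 11 and 11. Subunits above 3 reads made up 28% to 36% of the 50 genes in a group, against 42.1% to 44.1% of all genes in the table.

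Gabbr1 (ENSRNOG00000000774), the GABA-B subunit that binds the transmitter, supplied 8839 of the 14419 reads. At 3d its normalized counts were 988, 2015, 1780 and 1172 in saline, 788, 963, 803 and 1617 in MABsallo, and 908, 1050, 933 and 1367 in MABsallo-VEGF. With 24 samples the groups overlapped, with means of 1489 ± 487, 1043 ± 391 and 1065 ± 211 (SD, n = 4 each). The difference between MABsallo and saline was -0.52 ± 0.25 (SE) on the log2 scale, which did not pass the test (limma, adjusted p = 0.153; with 22 samples -0.70, adjusted p = 0.0474, within the fold limit). With 22 samples MABsallo-VEGF (908 to 1050) lay wholly below saline (1172 to 2015), with a log2 difference of -0.75 (limma, adjusted p = 0.0577). With 22 samples 2 of the 22 tested subunits lay wholly above saline in this comparison and 4 wholly below, Gabbr1 among them. With 24 samples 4% of all genes did not overlap. The share with 22 samples is not given, so nothing particular to Gabbr1 is read from this. At 7d the means were 1445 ± 255, 1398 ± 351 and 1506 ± 131. Gabbr2, its partner in the functional receptor, was far lower in reads, with means of 23.2 to 56.4 normalized counts over the 6 groups; levels of different genes are not compared further, since these reads come from transcript ends.

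The AMPA subunit Gria3 and the kainate subunit Grik5 followed in reads. Group means of Gria3 ran from 162 ± 93.3 (saline, 7d) to 375 ± 258 (MABsallo-VEGF, 7d), and those of Grik5 from 201 ± 32.0 (MABsallo, 7d) to 299 ± 128 (saline, 3d). Neither passed the test in any treatment comparison. The highest Grik5 value at 3d, 490, came from saline replicate 8. That library also had the highest summed Schwann cell markers of its group (47475, against 10048 to 11429 in the others), and their part in the value was not tested.

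**Figure D2:**
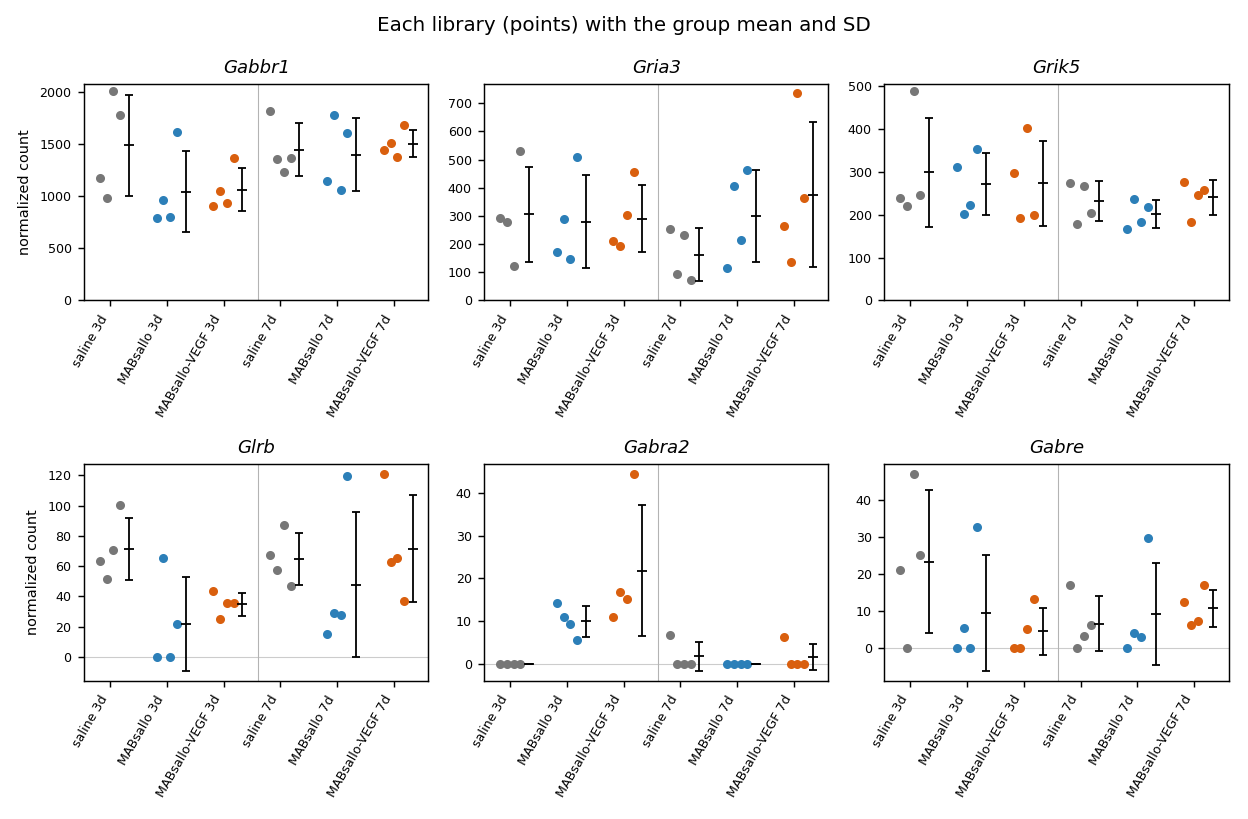
Normalized counts (y axis) of 6 subunits in each library of the 6 groups (x axis; points), with the group mean and SD beside them. Gabbr1 lies between 788 and 2015 in all libraries, and Gabra2 is at 0 in all 4 saline libraries at 3d.

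The comparison of cell-treated with saline urethras asks whether injected cells changed subunit RNA. A gene was called when its adjusted p was below 0.05 and its log2 fold change exceeded 1 in either direction, and 22 subunits were tested. Of these, 1 was higher and 1 lower in MABsallo than in saline at 3d, 2 of 22 or 9.09%, against 12.3% of all genes tested. In MABsallo-VEGF against saline at 3d 1 of 22 was called, against 0.0307% of all genes, that is 5 genes. None was called between MABsallo-VEGF and MABsallo at 3d (background 0.00614%), where 4 subunits (18.2%) had an unadjusted p under 0.05, as had 6.13% of all genes. Median log2 differences over the 22 were 0.24 in MABsallo and -0.16 in MABsallo-VEGF against saline, beside 0.07 and 0.04 over all genes. Both subunit medians changed sign with the processing, to -0.12 in MABsallo with quantile normalization and to 0.35 in MABsallo-VEGF with sample quality weights. Both comparisons use the same saline samples.

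Gabra2, a GABA-A alpha subunit, was the subunit called in both. It had 0 reads in each of the 4 saline libraries at 3d, 2, 2, 1 and 1 reads in MABsallo, and 2, 2, 3 and 10 reads in MABsallo-VEGF. Neither cell-treated group overlapped saline, but all MABsallo values lay at or under the floor of 3 reads and no fold is given there (limma, adjusted p = 0.00937). Non-overlap was found for 14.7% of all genes in the MABsallo comparison and for 4% in the MABsallo-VEGF one. The MABsallo-VEGF mean, 21.8 normalized counts, was at least 2.01-fold higher than the saline floor of 3 reads per library (limma, adjusted p = 0.0314), and 1 library, replicate 4, held 10 of the 17 reads. Without replicate 4 the mean was 14.2, or 1.31 times that floor, with libraries of 2 to 3 reads. The call then held, but it was lost without any one of its replicates 1, 2 and 3 or of saline replicates 8, 9 and 10. On recovered reads edgeR gave adjusted p = 0.0617 and 0.137 in the 2 comparisons, and DESeq2 gave no adjusted p.

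Glrb, the beta subunit that anchors glycine receptors, fell after MABsallo. Its reads at 3d were 15, 18, 28 and 18 in saline, 0, 12, 0 and 4 in MABsallo, and 8, 3, 7 and 8 in MABsallo-VEGF. In normalized counts, saline ran from 51.6 to 100 and MABsallo from 0 to 65.6, so these groups overlapped, whereas MABsallo-VEGF (25.003 to 43.3) lay wholly below saline. The log2 fold change was -3.50 ± 0.95 in MABsallo (limma, adjusted p = 0.0195); Glrb was not called in MABsallo-VEGF (adjusted p = 0.623). The MABsallo call was lost without saline replicate 8 or 9 or MABsallo replicate 1 or 3, and on recovered reads the log2 fold change was -1.58 (DESeq2, adjusted p = 0.0993) and -1.68 (edgeR, adjusted p = 0.133). The 8 Schwann cell markers were all lower in MABsallo than in saline, by a median of -1.75 on the log2 scale, with none called. Their summed level was 3465 to 9798 in MABsallo and 10048 to 47475 in saline, and their part in the Glrb value was not tested.

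With 22 samples, Gabra2 was called in both comparisons, Glrb in MABsallo (background 18.1%) and Gabre, a GABA-A epsilon subunit, in MABsallo-VEGF (background 13.6%). Gabre had 0, 12, 7 and 6 reads in saline and 0, 0, 1 and 3 in MABsallo-VEGF at 3d. Its log2 fold change was -2.08 ± 1.32 with 24 samples (limma, adjusted p = 0.425) and -4.05 ± 1.32 with 22 (adjusted p = 0.0394). The saline library left out is the one with 0 reads of Gabre. Leaving out any single library of these groups did not give the call, nor did DESeq2 (adjusted p = 0.103) or edgeR (adjusted p = 0.105) on the 22 samples.

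**Figure D3:**
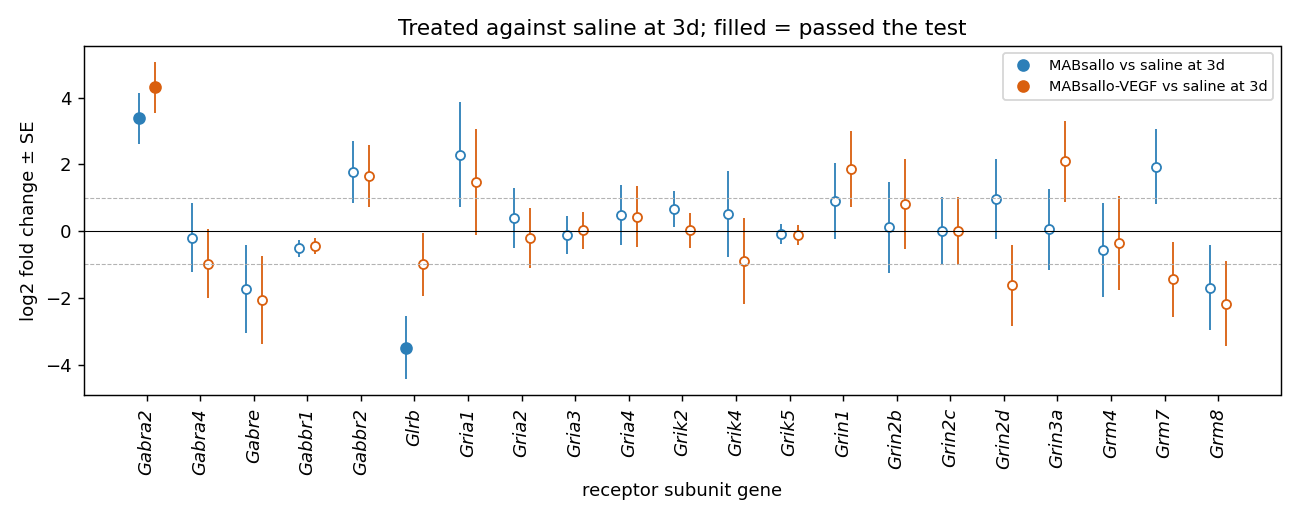
Log2 fold change ± SE (y axis) of 21 tested subunits (x axis) in MABsallo (blue) and MABsallo-VEGF (orange) against saline at 3d; filled points passed the test and dashed lines mark a log2 fold change of 1 in either direction. Gabra2 is filled in both and Glrb in MABsallo only; the difference between these effects on Glrb was not called in the comparison of MABsallo-VEGF with MABsallo.

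At 7d no subunit was called in any of the 3 treatment comparisons by limma, DESeq2 or edgeR, and limma called 0% of all genes. At an unadjusted p under 0.05, limma had 0 subunits for MABsallo against saline, 1 for MABsallo-VEGF against saline and 0 for MABsallo-VEGF against MABsallo, beside 6.23%, 6.34% and 2.78% of all genes. The treatment effect at 3d minus that at 7d was called for no subunit with 24 samples. With 22 samples it was called for Gabra2 after MABsallo (adjusted p = 0.0404; 3.56% of all genes).

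In saline rats alone, 1 of 22 subunits differed between days, against 3.19% of all genes. Gria4, an AMPA subunit, had 21, 15, 16 and 4 reads at 3d and 5, 1, 0 and 1 at 7d, and 1 library at 3d overlapped the 7d range. Its log2 fold change was 3.46 ± 0.91 (limma, adjusted p = 0.0340; with 22 samples 3.22, adjusted p = 0.127, where 0.19% of all genes were called). The call was lost without saline replicate 6 or 9 of 3d, or replicate 2, 3 or 5 of 7d. Grm7, a metabotropic glutamate receptor, had 10, 0, 4 and 10 reads in saline at 3d and none at 7d, a mean at least 2.26-fold above the floor of 3 reads per library. It was not called by limma (adjusted p = 0.0748) but was by DESeq2 (adjusted p = 0.0198) and edgeR (adjusted p = 0.0302). The shares of all genes called by DESeq2 and edgeR are not given.

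The days were also compared over the mean of the 3 treatments, 12 libraries against 12, a comparison added after the values were seen. Here 7 subunits were higher and 2 lower at 3d, 9 of 22 or 40.9%, against 22.6% of all genes (18.1% higher and 4.51% lower). The filter at a mean of 2 was passed only through the higher day by Grin2c, Grm7 and Gabra2. Their means on the lower day were 0 at 3d, 0.514 at 7d and 1.08 at 7d. How many of all genes entered in this way was not counted, so the 2 shares are not read as an excess of subunits. With 22 samples the counts were again 7 and 2 (background 22.5%), and DESeq2 and edgeR each called 6 higher and 2 lower. The shares of all genes called by DESeq2 and edgeR are not given, so their counts cannot be set against a background. With quantile normalization 4 were higher and 3 lower, Glrb being added and Gria1, Gria2 and Grik2 lost, while the calls over all genes were 2299 higher and 1695 lower, against 2945 and 735 before. No subunit had 3d and 7d libraries that did not overlap, beside 0.663% of all genes. At 3d the cell-treated libraries were shallower and richer in mitochondrial reads, and 4 of 6 smooth muscle and 4 of 6 urothelial markers were lower than at 7d. The part of these in the subunit values was not tested.

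Among AMPA subunits, which carry fast excitatory transmission, Gria4 had a median of 58.0 normalized counts at 3d (14.1 to 121) and 4.80 at 7d (0 to 46.5). It exceeded 3 reads in all 12 libraries at 3d and in 5 of 12 at 7d, with a log2 difference of 2.77 ± 0.52 (limma, adjusted p = 0.000178). Gria2, the subunit that limits calcium entry, had medians of 61.9 (25.003 to 178) and 19.9 (0 to 55.9), a log2 difference of 1.87 ± 0.52 (adjusted p = 0.00561; with quantile normalization 1.24, adjusted p = 0.0637). Gria1 differed by 2.28 ± 0.91 (adjusted p = 0.0474), and the call was lost when any of 16 of the 24 libraries was left out. Gria3 did not pass (0.22 ± 0.32, adjusted p = 0.620). Thus 3 of the 4 AMPA genes were called higher at 3d and the most abundant in reads was not.

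The kainate subunit Grik2 was detected in every library, with medians of 71.7 at 3d (26.7 to 138) and 30.006 at 7d (10.009 to 43.5), a log2 difference of 1.24 ± 0.31 (limma, adjusted p = 0.00235). Under quantile normalization, which moved the median of all genes to -0.19, the difference was 0.58 and was not called. Grik5 did not pass (0.28 ± 0.17, adjusted p = 0.190).

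Grm7 had 64 reads over the 12 libraries at 3d and 2 over the 12 at 7d, an abundance ratio of 52.8 with a 95% counting interval of 14.0 to 445. That interval covers counting error only, and 3 of the 12 libraries at 3d had no read. At 3d Grm7 had 24 reads in saline, 28 in MABsallo and 12 in MABsallo-VEGF. In MABsallo-VEGF 11 of the 12 came from replicate 3. The adjusted p of Grm7 between days was 0.000207 (limma). Grm4, another metabotropic receptor, went the other way, with a median of 0 normalized counts at 3d (0 to 48.8) and 34.3 at 7d (1.67 to 112), a log2 difference of -2.91 ± 0.81 (adjusted p = 0.00570).

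NMDA subunits also moved in both directions. Grin2c had no read in any of the 12 libraries at 3d and 48 reads at 7d, in 8 of 12 libraries. By group at 7d, its reads were 0, 17, 4 and 4 in saline, 8, 0, 8 and 4 in MABsallo, and 0, 1, 0 and 2 in MABsallo-VEGF. The adjusted p was 0.00116 (limma), but the mean at 7d, 11.01 normalized counts, was below the floor of 3 reads in the 3d libraries, 16.2, so no fold is given. Grin3a was higher at 3d, with 36 reads in 9 of 12 libraries against 9 reads in 4 of 12 (log2 difference 2.22 ± 0.70, adjusted p = 0.0134). Gabra2 completed the list, with 23 reads at 3d and 4 at 7d, but DESeq2, edgeR and the thinned reads did not call it. By group it had 0, 6 and 17 reads at 3d in saline, MABsallo and MABsallo-VEGF, and 2, 0 and 2 at 7d. In saline alone every library lay under the floor of 3 reads on both days, so no direction of Gabra2 can be told there.

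**Figure D4:**
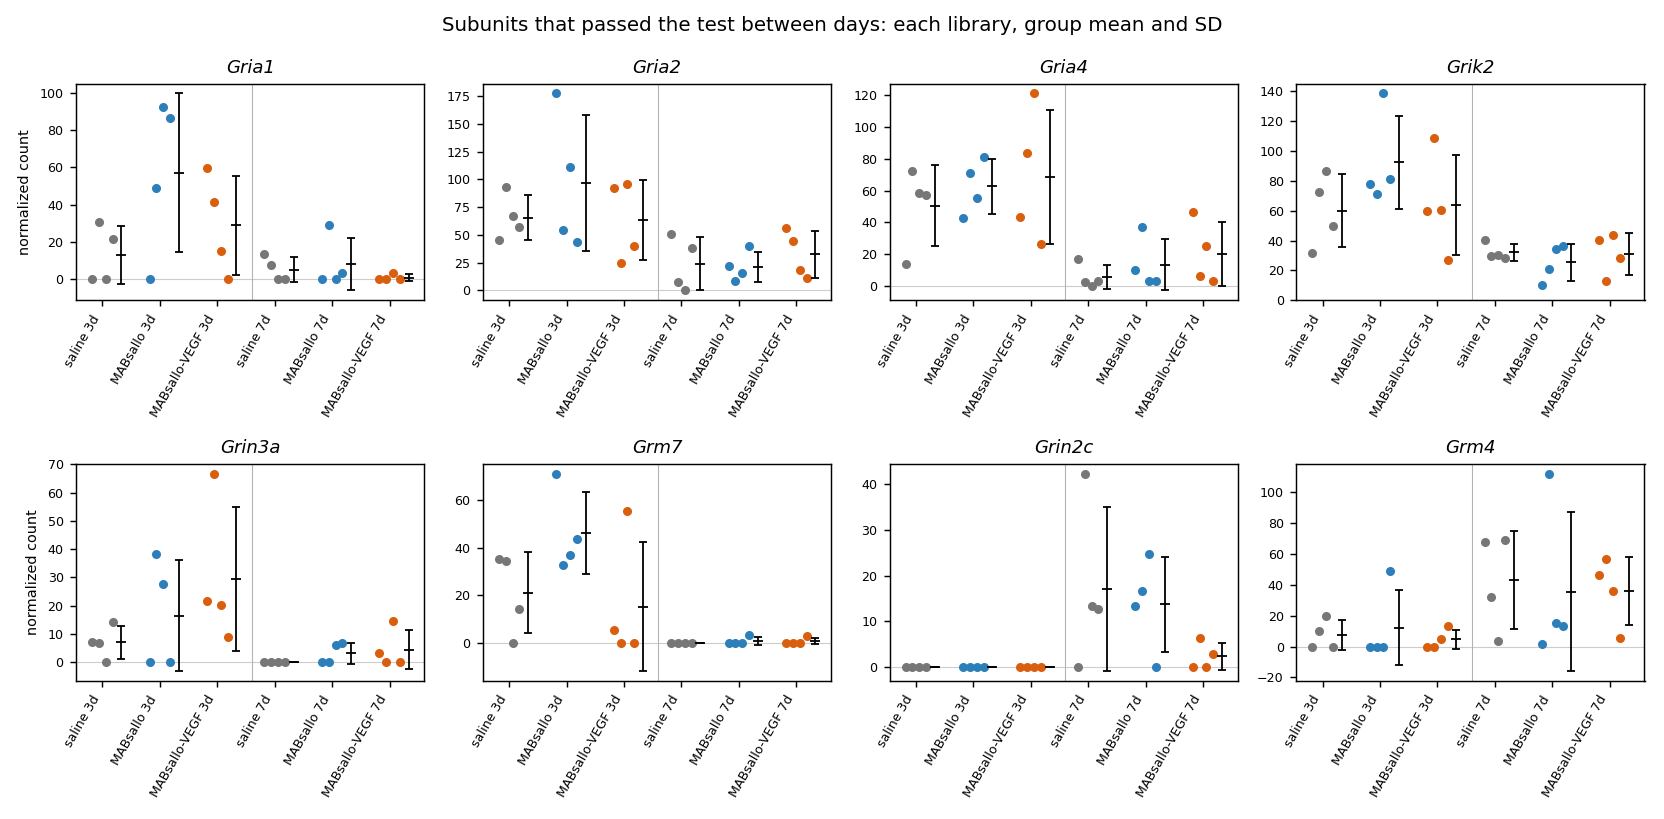
Normalized counts (y axis) in each library of the 6 groups (x axis; points), with group mean and SD, for 8 of the 9 subunits called between days; the grey line separates 3d from 7d. Grin2c is at 0 in all 12 libraries at 3d, and Grm7 has 2 reads in all at 7d.

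Upstream sequence is shown for Gria4 and Grm7, higher at 3d, and Grin2c, read only at 7d, as examples of both directions. Each is the 250 bases before the gene start in RefSeq (build GRCr8, which is not the build of the reads), 5′ to 3′ on the gene's strand, with CG dinucleotides, the usual site of DNA methylation in mammals, in capitals. The windows are chr8:10319882-10320131 on the minus strand, chr4:145286476-145286725 on the plus strand and chr10:101005139-101005388 on the minus strand.
Gria4: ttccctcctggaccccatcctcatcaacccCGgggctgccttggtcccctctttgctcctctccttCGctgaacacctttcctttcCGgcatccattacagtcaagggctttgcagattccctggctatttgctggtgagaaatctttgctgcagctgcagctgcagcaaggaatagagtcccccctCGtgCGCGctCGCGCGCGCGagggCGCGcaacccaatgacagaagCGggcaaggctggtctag
Grm7: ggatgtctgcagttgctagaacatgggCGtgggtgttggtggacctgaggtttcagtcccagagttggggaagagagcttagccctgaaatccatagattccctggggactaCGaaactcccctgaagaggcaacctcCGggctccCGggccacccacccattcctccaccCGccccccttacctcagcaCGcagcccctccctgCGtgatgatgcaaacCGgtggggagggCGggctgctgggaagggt
Grin2c: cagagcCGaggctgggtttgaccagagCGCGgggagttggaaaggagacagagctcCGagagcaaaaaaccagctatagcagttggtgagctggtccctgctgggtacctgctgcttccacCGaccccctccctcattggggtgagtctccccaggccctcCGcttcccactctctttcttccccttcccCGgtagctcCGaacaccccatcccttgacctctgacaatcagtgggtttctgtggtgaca
They held 14, 9 and 8 CG dinucleotides. The median was 5 over all 33469 such windows, 8 over the 34 subunits with an entry, 10 over the 15 of these above 3 reads in some library and 7 over the other 19. Methylation was not measured.

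Genes that work beside these receptors were taken as a list of 62, of which 59 were in the table and 43 were tested. At 3d, 3 were higher and 1 lower in MABsallo than in saline, 9.3% of the 43, below the 12.3% of all genes. The scaffold gene Dlg1 differed by 2.38 ± 0.60 on the log2 scale (limma, adjusted p = 0.0140) and Homer1, a scaffold of metabotropic glutamate receptors, by 3.13 ± 1.04 (adjusted p = 0.0446). Nrxn2, a presynaptic adhesion gene, fell by 1.16 ± 0.37 (adjusted p = 0.0377). None was called in MABsallo-VEGF against saline, and 4 were higher with 22 samples (9.3%, against 13.6% of all genes). Between days 7 of 43 were higher at 3d, among them Dlg1, Homer1, Homer2, Shank1 and Nlgn3, and 0 lower (1, Slc17a6, with 22 samples). This was 16.3%, below the 22.6% of all genes called and the 18.1% called higher. Many of these genes also act outside synapses, and group means of Dlg1 were 359 to 1459 at 3d and 79.2 to 93.4 at 7d.

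Of 14 neuronal markers, 13 exceeded 3 reads in some library and 5 did so in all 24. Their summed level was 2475 to 14334 normalized counts at 3d and 6464 to 22268 at 7d. Between days Tubb3 (1.18 ± 0.45, limma, adjusted p = 0.0370) and Elavl4 (1.23 ± 0.44, adjusted p = 0.0262) were higher at 3d and Uchl1 was lower (-1.08 ± 0.37, adjusted p = 0.0204), 3 of 13 or 23.1%, against 22.6% of all genes. With 22 samples Uchl1 alone was called (adjusted p = 0.0461; Tubb3 0.0541 and Elavl4 0.0545). None of the 13 tested was called between treatments at 3d. Their part in the subunit values was not tested.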

How the data were processed

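RNA of 24 urethras was sequenced as 3′ libraries. The authors trimmed reads, aligned them with HISAT2 to Rnor6.0, discarded reads with several positions, counted them with HTSeq and divided by DESeq2 size factors; the strand setting is not given in the sources used here. The deposited signal values are these normalized counts. Every value was a whole multiple of 1 read (100%, tolerance 0.001 reads), so reads were recovered. Subunits were found by symbol, and members and lists were chosen with earlier results of these data known; the comparison of days over the mean of the treatments was added after the values were seen. Genes with a mean of at least 2 (16287) were tested with limma 3.58.1 (trend) on log2(normalized count + 1). The test was made in 1 fit of 6 groups, two-sided, with Benjamini-Hochberg adjustment. This scale can understate changes of low genes, but it did not do so for every gene. The fall of Glrb called after MABsallo was larger on this scale than with DESeq2 or edgeR. A call needed both an adjusted p below 0.05 and a log2 difference larger than 1 either way. DESeq2 1.42.0 and edgeR 4.0.16 on recovered reads, other scalings, filters and left-out samples were alternatives. Scripts were tested on simulated data of the full design. Only genes with many reads were changed in it, so the power for sparse subunits was not tested. Any subunit could be named; values per sample are given for those called. Each limma p-value sets a difference between groups against the spread between samples within groups, pooled over the 6 groups. Replicates differed beyond counting noise (chi-square per degree of freedom 9.78 to 133). Values of a few genes of these lists are not reported here.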

Additional observations from a re-analysis of the deposited data

Results flagged for a closer look

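In 15 subunits, 83 groups of 4 libraries were checked for a library far from the other 3, and 10 were found. The cutoff flags about 1 in 20 groups of normally distributed values. Low counts with many values of 0 are not so distributed, so the 10 cannot be set against that rate. Groups whose highest value was 3 reads or fewer were among the 83 but could not be flagged. The values are normalized counts. At 3d they were Gabre at 32.5 and Grm4 at 48.8 in MABsallo replicate 4, Grik2 at 138 in MABsallo replicate 3, Grik5 at 490 in saline replicate 8, and Grm7 at 55.5 in MABsallo-VEGF replicate 3. At 7d they were Gabre at 29.8 and Glrb at 119 in MABsallo replicate 9, Gria1 at 29.1 and Grm4 at 112 in MABsallo replicate 13, and Grik2 at 40.6 in saline replicate 1. The effect of MABsallo on Gabra2 at 3d minus that at 7d was 4.12 on the log2 scale and passed the test with 22 samples (limma, adjusted p = 0.0404), on libraries of at most 2 reads.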

How the results depend on the processing

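Counts of called subunits out of 22 rested on few reads. For MABsallo against saline at 3d (2 called) the count was 1 with a filter at a mean of 10 or thinned reads and 0 with only the groups compared, DESeq2 or edgeR, the last 2 also on 22 samples. For MABsallo-VEGF against saline at 3d (1 called) it was 0 with a filter at a mean of 10, quantile normalization, scaling to the same total, only the groups compared, DESeq2, edgeR (both also on 22 samples) or thinned reads, and 2 with 22 samples. For saline at 3d against 7d (1 called) it was 0 with quantile normalization, only the groups compared, thinned reads, 22 samples, or edgeR on 22 samples, 2 with DESeq2 or edgeR, and 7 with sample quality weights. Quality weights also raised the calls over all 16287 genes, from 422 higher and 98 lower to 1456 and 396. Shares of all genes are not given for DESeq2 or edgeR. The effect at 3d minus that at 7d, called for 0, gave 1 with quality weights for each treatment and 1 with 22 samples for MABsallo. Over all genes, quality weights moved these calls from 0 to 286 higher and 81 lower for MABsallo. For MABsallo-VEGF they moved from 0 to 271 higher and 105 lower. Leaving out 1 library gave 1 to 2, 0 to 1 and 0 to 2 for the first 3 comparisons, 8 to 10 for the days over all treatments, and 0 otherwise. None of the subunits called with 24 or 22 samples reversed direction in the comparison that called it. Over all 22, those with a positive difference for MABsallo against saline at 3d went from 13 to 9 with quantile normalization, and for MABsallo-VEGF from 9 to 12 with quality weights. Scaling to the same total moved the median of all genes from 0.07 to -0.19 for MABsallo against saline at 3d, and the calls over all genes from 1531 higher and 466 lower to 1089 and 1023. With 10 reads as the floor, 10, 9 and 9 subunits were above it in saline, MABsallo and MABsallo-VEGF at 3d and 10, 9 and 10 at 7d; with 1 read as the floor MABsallo-VEGF at 3d had 23. Samples of MABsallo and MABsallo-VEGF at 3d share only replicate numbers (correlations of deviations 0.222, 0.151, 0.0734 and 0.254); with a replicate block 0 subunits were called between them. Depth limits all subunits but Gabbr1, Gria3, Grik5 and Grik2, which alone exceeded 3 reads everywhere.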
